A study of Mus musculus with 10 samples.

Results

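The effect of interleukin-3 (IL-3) on reaggregated OP9 cells was measured by RNA-seq in 6 of the 10 samples of the series, chosen as all the reaggregates. Reaggregates 2, 4 and 6 were cultured with IL-3 and reaggregates 1, 3 and 5 without it, and the remaining 4 samples were flat, submersed cultures. OP9 is a bone marrow stromal line that arose from the calvaria of mice lacking functional macrophage colony-stimulating factor, given in the labels as a foetal calvaria line of the strain (C57BL/6xC3H)F2-op/op. The study used it as an environment that supports maturation of haematopoietic stem cells. All 6 reaggregates were kept for 48 h on nitrocellulose filters at the liquid-gas interface after dispersal with trypsin. At harvest the cells were dissociated with collagenase and dispase before RNA extraction. The reaggregates differed in the labels only by IL-3, whose dose is labelled as 200 µg/µl, a unit that may be an error. The laboratory that supplied the cells of the reaggregates was not labelled. Expression is given in RPM, in which the reads of a gene are divided by the size of its library. With the most frequent nonzero RPM value treated as a single read, the reaggregates held from 7.35 M to 9.43 M reads on genes. At that depth 3 reads, taken as the least that a library can show, corresponded to between 0.318 and 0.408 RPM, which covers counting error only.

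IL-3 is a cytokine made mainly by activated T cells and mast cells, and it sustains blood progenitors. It binds a specific alpha chain, Il3ra, which pairs with the common beta chain Csf2rb or, in the mouse, with its close relative Csf2rb2. The beta chain carries the kinase JAK2, which activates STAT5, RAS-ERK and PI3-kinase signalling. STAT5 in turn induces feedback inhibitors such as Cish and Socs genes, and survival and growth genes such as Pim1, Bcl2l1 and D cyclins.

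Transcripts of stromal markers, summed over their list, were abundant in every reaggregate. Of 15 stromal markers, 13 exceeded 0.5 RPM in at least 1 reaggregate, as did 16292 of all 26888 genes. Nt5e and Thy1 did not in any. The most abundant stromal marker, the collagen gene Col1a2, lay between 7610 and 11300 RPM. The summed level of the stromal markers was 27080, 28130 and 23350 RPM without IL-3 (reaggregates 1, 3 and 5) and 27050, 28440 and 22050 RPM with it (reaggregates 2, 4 and 6). Blood cell markers were scarce, with a summed level of 52.8, 40.7 and 44.3 RPM without IL-3 and 54.6, 41.4 and 44.2 RPM with it. Of the 18 blood cell markers matched, 8 exceeded 0.5 RPM in at least 1 reaggregate, with the highest values in Lyz2, between 7.28 and 25 RPM, and Itga2b, between 9.14 and 23 RPM. The defining leukocyte gene Ptprc was at 0 in all 6 reaggregates, as were Cd3e, Gata1, Mpo and Mcpt8. Of 7 endothelial markers, only Pecam1 exceeded 0.5 RPM, and its highest value was 0.643 RPM. None of these markers passed the test for IL-3.

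Few transcripts differed with IL-3, and with all 6 libraries those past the threshold were all lower with it. Libraries were compared on log2(RPM + 0.5) with limma in 16292 genes above 0.5 RPM in at least 1 reaggregate, with consecutive libraries (1 and 2, 3 and 4, 5 and 6) as blocks. On this scale the change of genes with low values is understated. At an adjusted p of at most 0.05, 8 genes (0.0491% of those tested) were lower and 0 (0%) were higher. Of these, 3 genes (0.0184%) were lower by at least 2-fold and 0 (0%) higher, the threshold set for a call. At an unadjusted p of at most 0.05 there were 399 genes higher (2.45%) and 293 lower (1.8%), together 4.25% of all genes, where 5% would pass with no difference. The counts rest on the blocks and on the spread that limma borrows across genes. With no replicate block, 0 genes had an adjusted p of at most 0.05 and 20 an unadjusted p of at most 0.05. With a random replicate block, or without the trend of variance on mean level, 0 genes had an adjusted p of at most 0.05. A robust version of the moderation, chosen after seeing the data, kept 1 gene, Socs3. Without reaggregate 1 or 2 there were 83 or 88 genes with an adjusted p of at most 0.05, all 8 among them. Without 5 or 6 there were 2, none of them among the 8. Without 3 or 4 there were 7, of which 5 were among the 8. The only gene past both thresholds without 3 or 4 was Csf2rb, which was higher with IL-3. Without 1 or 2 there were 13 or 14 genes past both thresholds, of which 2 or 3 were higher with IL-3. No source states that the libraries are separate cultures, so that p-values do not measure a spread between cultures. They rest on the spread between these libraries, moderated strongly towards that of other genes (29.9 prior degrees of freedom).

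**Figure D1:**
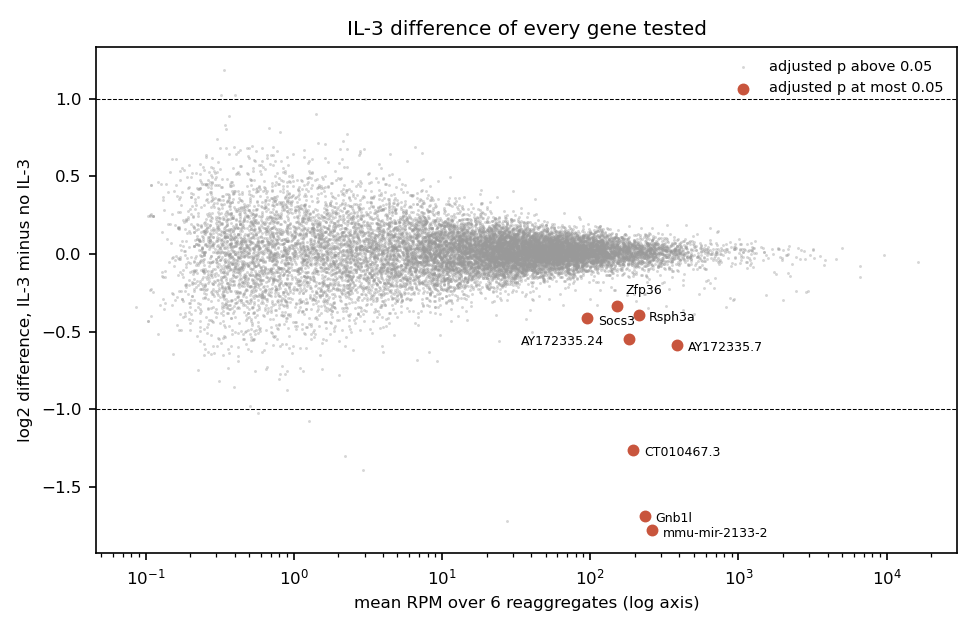
Log2 difference between reaggregates with and without IL-3 (vertical axis, on log2(RPM + 0.5)) against the mean RPM of the 6 reaggregates (horizontal, log axis), with 1 point for each of 16292 genes and dashed lines at 2-fold. The 8 named points, which passed an adjusted p of 0.05 in limma, all lie below 0, and 3 of them lie beyond the lower line.

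With consecutive libraries as blocks, the confidence intervals were narrow for genes above a few RPM. The 95% confidence interval of the log2 difference lay within 2-fold in either direction for 15943 genes, or 97.9%. This share was 87.9% for genes with a mean under 1 RPM and 99.9% for those at 5 to 20 RPM. In the lowest class the added 0.5 RPM itself shrinks differences, so that the interval does not limit the fold in RPM. With 0.1 RPM added the share over all genes was 84.3%. It was 77.1% with no replicate block and 73.6% with all 10 libraries in the fit. The median standard error of the log2 difference was 0.11 over all genes and 0.06 for those over 100 RPM. Over all genes the median difference was 0.01.

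The genes with the smallest adjusted p were the ribosomal RNAs of the mitochondrion, which form the RNA core of its ribosomes. The large one, listed as AY172335.7 and annotated as mt-Rnr2 (NCBIM37, chrM:1094-2675, plus strand), was at 221, 518 and 693 RPM in reaggregates 1, 3 and 5 and at 202, 299 and 390 RPM in their partners 2, 4 and 6. Each value with IL-3 was below that of its partner, although the groups overlapped because the pairs differed in level. AY172335.7 fell by 0.58 ± 0.08 on the log2 scale (SE, limma adjusted p = 0.00047). The small one, AY172335.24 or mt-Rnr1 (chrM:70-1024, plus strand), was at 93.6, 269 and 300 RPM without IL-3 and at 83.7, 146 and 199 RPM with it, and fell by 0.54 ± 0.08 (SE, limma adjusted p = 0.00068). In both, the difference was small in pair 1 and 2 and large in the other pairs. Without reaggregate 5 or 6 neither passed the threshold, with adjusted p-values between 0.51 and 0.74. Without reaggregate 3 or 4, AY172335.24 gave 0.0755 and 0.0662. With robust moderation, chosen after seeing the data, both AY172335.7 and AY172335.24 lost the threshold, with an adjusted p of 0.9999.

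Mitochondrial messenger RNAs, examined after these values were seen, did not pass the test. All 13 protein-coding genes of the mitochondrial genome were tested, with 3 higher and 10 lower, a median log2 difference of -0.09 and no adjusted p below 0.9997. Their summed level was 16540, 19470 and 32180 RPM in reaggregates 1, 3 and 5 and 14370, 19110 and 32110 RPM in reaggregates 2, 4 and 6. mt-Co1, which encodes a subunit of cytochrome c oxidase, was at 5270, 6080 and 9380 RPM without IL-3 and at 4640, 5700 and 8380 RPM with it. The part of RNA quality or of ribosomal RNA removal in these values was not tested.

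The 3 features past the 2-fold threshold had their highest values in reaggregate 3. CT010467.3, annotated as the pseudogene AY036118 (chr17:39985048-39985772, minus strand), was at 133, 513 and 205 RPM without IL-3 and at 160, 66.8 and 94.6 RPM with it. Gnb1l, which encodes a WD-repeat protein (chr16:18498861-18566772, plus strand), was at 61.8, 920 and 203 RPM without IL-3 and at 80.6, 51.1 and 83.2 RPM with it. The feature listed as mmu-mir-2133-2 was at 66.1, 1060 and 221 RPM without IL-3 and at 82.4, 50.2 and 91.6 RPM with it. In all 3 the value with IL-3 was higher than its partner in pair 1 and 2 and lower in the other pairs, so that the direction was shared by 2 of 3 pairs. On the log2 scale CT010467.3 fell by 1.26 ± 0.24, Gnb1l fell by 1.69 ± 0.34 and mmu-mir-2133-2 fell by 1.78 ± 0.35 (SE, limma adjusted p of 0.026, 0.041 and 0.038). These SEs are moderated towards those of other genes and understate the spread between the pairs. In pairs 1-2, 3-4 and 5-6 the differences were 0.27, -2.93 and -1.11 for CT010467.3 and 0.38, -4.16 and -1.28 for Gnb1l. For mmu-mir-2133-2 they were 0.32, -4.39 and -1.27. Without reaggregate 3 or 4 all 3 still had an adjusted p of at most 0.05, but the log2 difference was -0.42 for CT010467.3, -0.45 for Gnb1l and -0.48 for mmu-mir-2133-2, so that none was past 2-fold. Without reaggregate 1 or 2, the pair in which they were not lower, the differences were -2.02, -2.72 and -2.83 in the same order. None of the 3 passed with robust moderation, where the adjusted p was 0.9999, nor without reaggregate 5 or 6. The values of mmu-mir-2133-2 and Gnb1l kept a nearly fixed ratio, between 0.982 and 1.22 in all 10 samples, so that they may share reads and cannot be treated as independent features. The origin of the reads on all 3 features was not established, and their assignment to these genes is uncertain. The 3, CT010467.3 included, may therefore not be independent calls. Their decrease lay in pairs 3-4 and 5-6, in which the mitochondrial ribosomal RNAs also fell most. The part of RNA quality or of ribosomal RNA removal was not tested for these features either. Flat cultures also spread widely for Gnb1l, at 93.5, 361, 112 and 140 RPM.

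Rsph3a, a gene of the radial spokes of cilia that was chosen after its values were seen, was at 159, 280 and 290 RPM without IL-3 and at 153, 178 and 210 RPM with it. It fell by 0.39 ± 0.07 (SE, limma adjusted p = 0.026), again with little difference in pair 1 and 2. The log2 difference was -0.26 without reaggregate 3 or 4, and it did not pass with any 1 of reaggregates 3 to 6 left out or with robust moderation (adjusted p = 0.9999).

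Socs3 and Zfp36, which both passed the test, were lower with IL-3 in each pair. Socs3 (chr11:117827393-117831361, minus strand) encodes a feedback inhibitor of JAK-STAT signalling, induced most strongly through STAT3. It was at 97.9, 97.0 and 131 RPM in reaggregates 1, 3 and 5 and at 82.3, 61.8 and 103 RPM in reaggregates 2, 4 and 6. The groups overlapped in level, at 108.6 ± 19.4 RPM without IL-3 and 82.4 ± 20.6 RPM with it (SD, n = 3 each), whereas each partner with IL-3 was lower. Socs3 fell by 0.41 ± 0.07 on the log2 scale, with a 95% interval from -0.56 to -0.27 (limma adjusted p = 0.0090). Socs3 kept the threshold with robust moderation (adjusted p = 0.0304). At the same log2 difference it lost the threshold without the filter on low values (adjusted p = 0.8605) and without the variance trend (adjusted p = 0.9997). It also lost the threshold with no replicate block, with a random replicate block and with all 10 libraries in the fit. Without any 1 of reaggregates 3 to 6 it remained lower but did not pass, with adjusted p-values between 0.498 and 0.704.

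Zfp36 (chr7:29161803-29164274, minus strand) encodes tristetraprolin, which binds AU-rich elements and promotes decay of cytokine messages, and was chosen after its values were seen. It was at 174, 177 and 152 RPM without IL-3 and at 139, 156 and 107 RPM with it. Only 1 value with IL-3 lay above the lowest value without it. Zfp36 fell by 0.34 ± 0.06 (SE, limma adjusted p = 0.026), but gave an adjusted p of 0.0723 with robust moderation and did not pass without reaggregate 5 or 6. It also lost the threshold with 0.1 RPM added (adjusted p = 0.1065) and with quantile normalization (adjusted p = 0.0780). Nor did it pass without the filter on low values, without the variance trend, with no or a random replicate block, or with all 10 libraries in the fit. The part of cell dispersal and harvest in the values of Socs3 and Zfp36 was not tested.

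**Figure D2:**
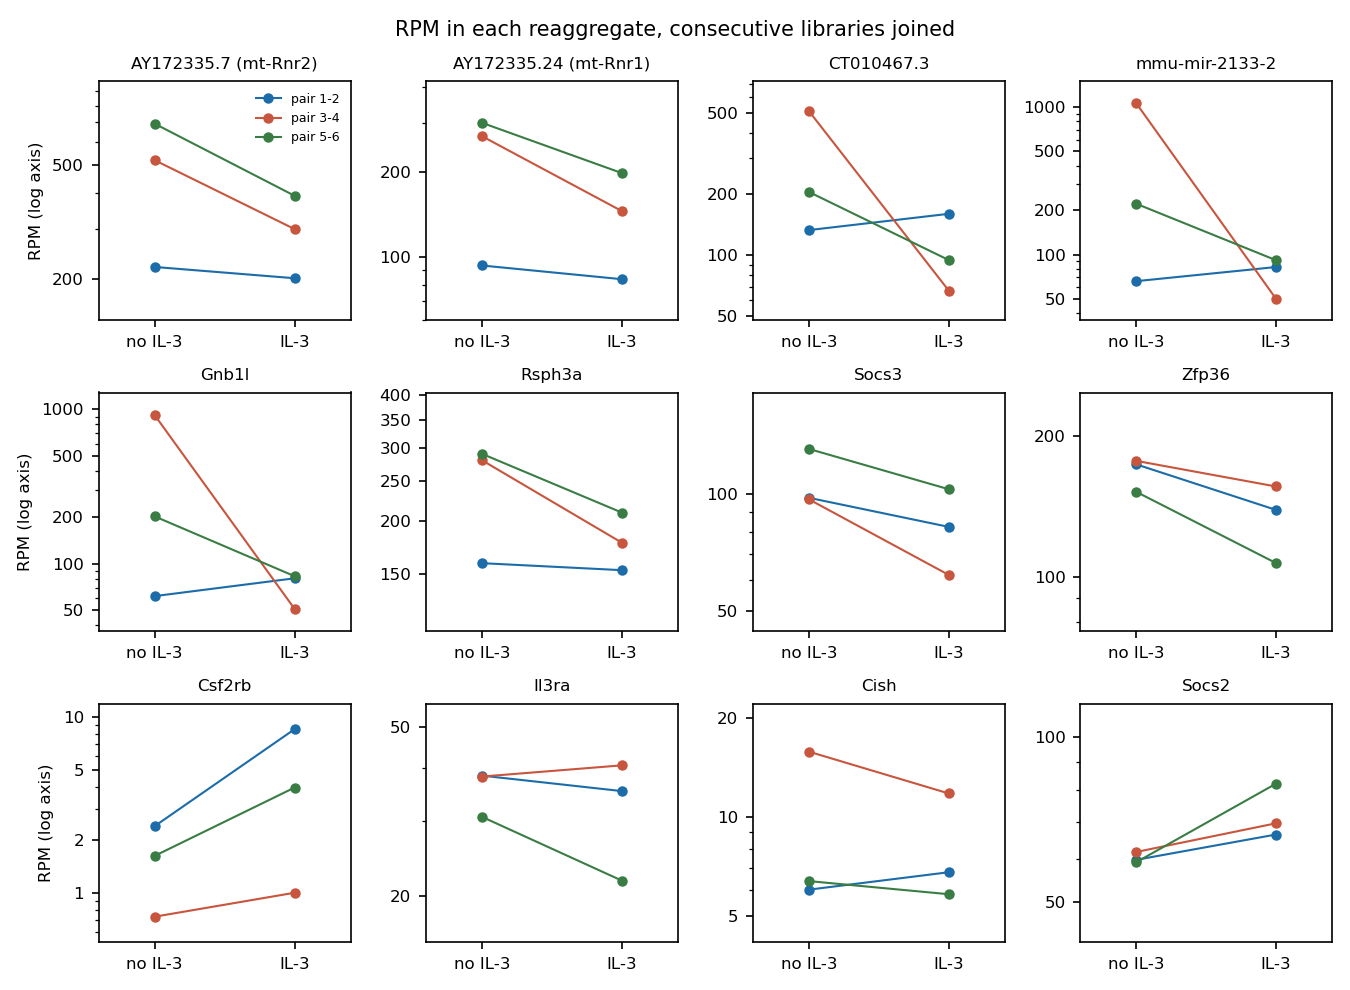
RPM (vertical log axis) of 12 genes in the reaggregates without IL-3 (left) and with it (right), with 1 point per library and a line joining consecutive libraries. Socs3 and Zfp36 were lower with IL-3 in all 3 pairs, whereas CT010467.3, mmu-mir-2133-2 and Gnb1l were lower in pairs 3-4 and 5-6 and higher in pair 1-2.

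The receptor was represented unevenly in OP9 reaggregates. Il3ra was at 38.4, 38.2 and 30.7 RPM without IL-3 and at 35.3, 40.6 and 21.7 RPM with it. Csf2rb was at 2.39, 0.731 and 1.62 RPM without IL-3 and at 8.50, 1.0 and 3.96 RPM with it. These receptor chains are given here although outside the rule for named genes, and were chosen after their values were seen. Per kilobase of exon, the level of Il3ra was between 15.6 and 29.1 RPM and that of Csf2rb between 0.144 and 1.68 RPM. Jak2, the kinase bound to the beta chain, was between 8.39 and 11.6 RPM per kilobase.

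Csf2rb had the largest log2 difference of the receptor and signalling list. Its value was higher with IL-3 in 3 of 3 pairs, although the groups overlapped, and the flat cultures stood at 0.345, 1.29, 0.464 and 0.213 RPM. The log2 difference of Csf2rb was 0.999 ± 0.23 (SE), with a 95% interval from 0.53 to 1.47 and a limma adjusted p of 0.15, which misses the threshold. Without reaggregate 3 the difference was 1.36 (adjusted p = 0.00107), and without reaggregate 4 it was 1.36 (adjusted p = 0.00144). It was 0.68 without reaggregate 1 or 2 (adjusted p of 0.399 or 0.434) and 0.96 without 5 or 6, where it did not pass either. Csf2rb2 was at 0.431, 0.0311 and 0.00362 RPM without IL-3 and at 0.628, 0.149 and 0.396 RPM with it, near or under the level of 3 reads. Of the 50-base windows of Csf2rb transcripts, 17.4% also occur in Csf2rb2, so that some reads can be divided between them. Csf2rb2 is therefore uncertain at this depth, and the share of Csf2rb reads that could belong to it was not measured.

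Most other members of the proximal signalling list showed little difference, and the counts here cover the whole list, Csf2rb and Csf2rb2 included. Of its 26 genes, 25 were matched and 22 tested, with 13 higher and 9 lower and a median log2 difference of 0.01, the same as over all genes. Higher values in 3 of 3 pairs were found for 5 of the 22 genes and lower ones for 2, against 12.9% and 8.77% of all genes tested. Stat5a was at 76.0, 63.6 and 64.4 RPM without IL-3 and at 79.1, 56.1 and 66.4 RPM with it. Stat5b was at 70.5, 57.7 and 53.1 RPM without IL-3 and at 71.1, 60.7 and 52.0 RPM with it. For these transcription factors the 95% intervals of the log2 difference reached from -0.17 to 0.12 and from -0.13 to 0.16. The interval of Jak2 reached from -0.06 to 0.25. Grb2, Shc1 and Ptpn11, which link the receptor to RAS, had log2 differences of -0.01, 0.01 and 0.09. Those of the kinases Jak1, Tyk2 and Fyn were 0.07, -0.10 and 0.13, and those of Stat3, Stat6 and Pik3r1 were -0.02, 0.00 and 0.07. The largest decrease was that of Pik3cd, at -0.35 with an interval from -0.73 to 0.03. None of these passed the test, and the intervals of 20 of the 22 genes lay within 2-fold.

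Of the STAT5 target genes, only Socs3 passed the test. Of 24 genes, 23 were matched and 21 tested, with 11 higher and 10 lower, a median log2 difference of 0.01, and 1 gene past the threshold, Socs3, which was lower. Higher values in 3 of 3 pairs were found for 5 of the 21 genes and lower ones for 3, against 12.9% and 8.77% of all genes. An unadjusted p of at most 0.05 was reached by 3 genes that were higher, Socs2, Ccnd1 and Tnfrsf9, and by Socs3, against 2.45% and 1.8% of all genes. The largest difference was that of Tnfrsf9, which encodes the costimulatory receptor 4-1BB and was chosen after its values were seen. Tnfrsf9 was at 2.31, 0.762 and 3.25 RPM without IL-3 and at 3.95, 0.896 and 4.99 RPM with it (log2 difference 0.45, limma adjusted p above 0.99). Cish, an early feedback inhibitor induced by STAT5, was at 6.03, 15.8 and 6.40 RPM without IL-3 and at 6.81, 11.8 and 5.84 RPM with it. It differed in direction between the pairs, and its interval reached from -0.43 to 0.19. Socs2, another STAT5 target, was at 59.7, 61.7 and 59.1 RPM without IL-3 and at 66.4, 69.6 and 82.2 RPM with it. Every value of Socs2 with IL-3 was above every value without it, and its log2 difference was 0.27 ± 0.07 (SE, limma adjusted p = 0.46). The cell cycle regulator Ccnd1 was at 207, 180 and 231 RPM without IL-3 and at 217, 205 and 276 RPM with it, a log2 difference of 0.17 ± 0.06 (SE, limma adjusted p = 0.94). Without reaggregate 1 or 2, Socs2 passed with an adjusted p of 0.0359 or 0.0376. Its adjusted p was 0.706 or 0.714 without reaggregate 3 or 4, and without 5 or 6 the log2 difference was 0.16 and did not pass. The survival genes Bcl2l1 and Mcl1 had log2 differences of 0.01 and 0.07, the kinase Pim3 -0.02 and the cyclins Ccnd2 and Ccnd3 -0.08 and 0.11. Those of the transcriptional regulators Bcl6, Id1 and Xbp1 were 0.15, -0.15 and 0.10, and those of Igf1 and Cdkn1a were 0.09 and -0.02. In pairs 1-2, 3-4 and 5-6 the differences were 0.01, 0.15 and 0.29 for Bcl6 and -0.46, 0.18 and -0.16 for Id1. None of these genes passed, and the intervals of all 21 genes lay within 2-fold.

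**Figure D3:**
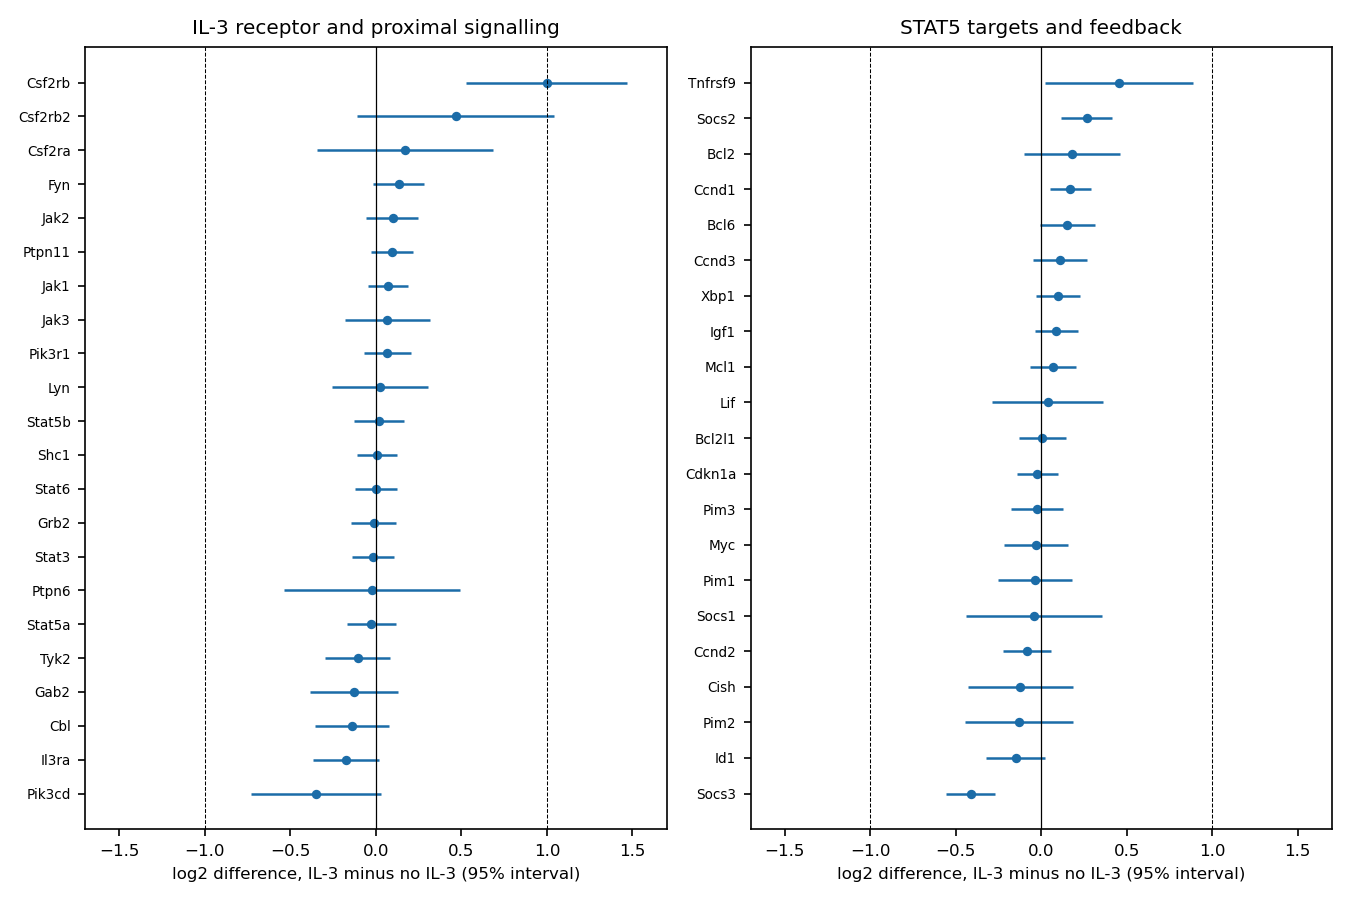
Log2 difference between reaggregates with and without IL-3 (points) with 95% confidence intervals from limma (bars) for the 22 receptor and signalling genes (left) and the 21 STAT5 target genes (right) that were tested, with dashed lines at 2-fold. The interval of Csf2rb lies above 0 and reaches past 2-fold, that of Socs3 lies below 0, and most others include 0.

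The promoters of Socs3 and Zfp36, which passed the test, and of Cish, which did not, are shown as 3 examples chosen after their values were seen. STAT dimers bind the palindrome TTCNNNGAA, which reads the same on both strands. It was searched for in the 250 bases before each RefSeq gene start in GRCm38.p6, and is in capitals. It occurred in 7.02% of 32851 promoter entries, and in 5 of the 55 entries of the receptor and STAT5 lists. Beside Socs3, these belong to Bcl6, Tnfrsf9 and Csf2rb2, so that a match was also found in genes that did not pass the test. Of the 50 symbols of these lists, 41 had a promoter entry. Apart from Socs3 and Zfp36, the promoters of genes that passed were not examined singly, so that no comparison of passing genes with others was made. A match describes these letters only.
Socs3, chr11:117969367-117969616, minus strand: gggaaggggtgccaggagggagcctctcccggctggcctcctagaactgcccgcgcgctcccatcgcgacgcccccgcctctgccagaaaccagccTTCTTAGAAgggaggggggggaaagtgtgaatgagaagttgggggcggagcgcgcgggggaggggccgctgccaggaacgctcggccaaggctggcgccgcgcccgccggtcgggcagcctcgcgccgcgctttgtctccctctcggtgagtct
Zfp36, chr7:28379229-28379478, minus strand: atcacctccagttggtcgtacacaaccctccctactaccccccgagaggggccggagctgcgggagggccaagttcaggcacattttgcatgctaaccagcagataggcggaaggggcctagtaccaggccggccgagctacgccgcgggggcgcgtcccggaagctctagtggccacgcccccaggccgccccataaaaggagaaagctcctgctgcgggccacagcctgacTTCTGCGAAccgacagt
Cish, chr9:107296409-107296658, plus strand: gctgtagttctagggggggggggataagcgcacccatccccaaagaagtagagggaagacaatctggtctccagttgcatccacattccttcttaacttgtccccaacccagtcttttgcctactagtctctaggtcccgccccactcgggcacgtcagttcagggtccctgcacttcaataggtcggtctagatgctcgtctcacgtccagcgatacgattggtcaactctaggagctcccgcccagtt
Socs3 held 1 match, 154 bases before the gene start, Zfp36 held 1 match, 17 bases before it, and the window of Cish held none.

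Immediate early genes of the RAS-ERK pathway, which respond to growth factors within minutes and also to cell handling, had 21 lower and 9 higher values with IL-3 among 30 tested, against 7212 lower and 9002 higher over all genes. The median log2 difference was -0.09, against 0.01. The direction was not shared by all pairs, with 21 lower and 7 higher in pair 1-2 and 23 lower and 7 higher in pair 5-6, but 10 lower and 19 higher in pair 3-4. In 3 of 3 pairs 8 were lower and 2 higher, against 8.77% and 12.9% of all genes. An unadjusted p of at most 0.05 was reached by 9 genes that were lower and 0 that were higher, against 1.8% and 2.45% of all genes. No gene of the list had an adjusted p of at most 0.05, and no test of the list as a whole was run.

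Fosb, an AP-1 subunit, had the smallest p of the immediate early list. It was at 513, 556 and 331 RPM without IL-3 and at 352, 572 and 223 RPM with it, lower in 2 of 3 pairs. Its log2 difference was -0.36 ± 0.08 (SE, limma adjusted p = 0.068). Without reaggregates 3 or 4, the pair in which it was not lower, the difference was -0.56 and it passed with an adjusted p of 1.32e-05 or 1.42e-05. Without reaggregate 1 or 2 the difference was -0.26, with an adjusted p of 0.0514 or 0.0498, and without 5 or 6 it was -0.25 and did not pass. Egr2, a zinc finger factor, was at 35.5, 32.6 and 56.8 RPM without IL-3 and at 28.5, 19.6 and 48.9 RPM with it, lower in 3 of 3 pairs. The difference of Egr2 was -0.42 ± 0.09 (SE, limma adjusted p = 0.096), and it passed without reaggregate 1 or 2 (adjusted p of 0.00316 or 0.00225). Egr2 did not pass without reaggregate 3 or 4, where the difference was -0.26 (adjusted p = 0.9994), nor without 5 or 6 (adjusted p of 0.511 or 0.545). The orphan nuclear receptor Nr4a1, chosen after its values were seen, was at 695, 392 and 686 RPM without IL-3 and at 516, 371 and 574 RPM with it (limma adjusted p = 0.22). Fos and Egr1, chosen in the same way, were each lower with IL-3 in pairs 1-2 and 5-6 and higher in pair 3-4, with intervals from -0.23 to 0.04 and from -0.22 to 0.04. The part of cell dispersal and harvest in these values was not tested.

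None of the cell cycle genes had an adjusted p of at most 0.05. Of 29 genes tested, 23 were higher with IL-3 and 6 lower, against 9002 higher and 7212 lower over all genes, and the median log2 difference was 0.13, against 0.01. Pair 1-2 was balanced, with 15 higher and 14 lower, against 20 and 9 in pair 3-4 and 24 and 5 in pair 5-6. In 3 of 3 pairs 9 were higher and 0 lower, against 12.9% and 8.77% of all genes. An unadjusted p of at most 0.05 was reached by 7 genes that were higher and 0 that were lower, against 2.45% and 1.8% of all genes, and no test of the list as a whole was run. Ccnb1, the mitotic B-type cyclin, had the smallest p of the list, at 11.6, 7.30 and 15.3 RPM without IL-3 and at 14.8, 10 and 19.1 RPM with it. Each value of Ccnb1 with IL-3 exceeded its partner, and the log2 difference was 0.36 ± 0.12 (SE, limma adjusted p = 0.92). Values of Ccnb1 in the flat cultures were higher than in any reaggregate, at 151, 56.9, 89.0 and 64.6 RPM.

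Factors through which stroma supports blood stem cells showed no difference past the threshold. Of 32 niche genes, 30 were matched and 27 tested, with a median log2 difference of 0.05 and all 27 intervals within 2-fold. There were 19 higher and 8 lower, against 9002 higher and 7212 lower over all genes. In 3 of 3 pairs 2 were higher and 3 lower, against 12.9% and 8.77% of all genes. An unadjusted p of at most 0.05 was reached by 0 that were higher and by 2 that were lower, Bmp4 and Dll1, against 2.45% and 1.8% of all genes. Cxcl12, the chemokine that retains stem cells, was at 889, 2220 and 546 RPM without IL-3 and at 898, 2300 and 573 RPM with it. The spread between the pairs was thus far larger than any difference within them. Bmper, a secreted modulator of BMP signalling, was at 90.3, 48.8 and 73.5 RPM without IL-3 and at 90.2, 52.4 and 75.8 RPM with it, with an interval from -0.09 to 0.19. Runx1, a transcription factor required for blood stem cell formation, was at 94.6, 113 and 82.9 RPM without IL-3 and at 94.7, 120 and 75.8 RPM with it, with an interval from -0.15 to 0.12. The other abundant niche genes, Spp1, Angpt1, Igf1, Jag1, Csf1, Fgf7 and Vcam1, had log2 differences between 0.03 and 0.09. Bmp4, a ligand that acts on the embryonic aorta, had the smallest p of the list. It was at 27.5, 23.3 and 29.1 RPM without IL-3 and at 25.6, 17.2 and 24.8 RPM with it (log2 difference -0.25 ± 0.10, SE, limma adjusted p above 0.99). By pair the difference of Bmp4 was -0.10 in 1-2, -0.43 in 3-4 and -0.23 in 5-6, so that its size rests most on pair 3-4.

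The remaining lists held no gene with an adjusted p of at most 0.05. Of 24 inflammatory, NF-kB and interferon genes tested, 10 were higher and 14 lower, with a median of -0.02 and no gene at an unadjusted p of at most 0.05. The smallest p there was that of the chemokine Ccl2, at 62.2, 13.0 and 62.0 RPM without IL-3 and at 57.7, 14.6 and 79.8 RPM with it. Of 17 stress genes, 9 were higher and 8 lower, and the thioredoxin inhibitor Txnip, at 450, 418 and 376 RPM without IL-3 and 491, 441 and 483 RPM with it, had the smallest p. Of 15 adipocyte and osteoblast genes, 10 were higher and 5 lower. Among them the fatty acid binding protein Fabp4 was at 23.2, 39.1 and 19.1 RPM without IL-3 and at 24.5, 44.4 and 25.4 RPM with it. Among the stromal markers Ly6a, or Sca-1, had the smallest p, at 161, 92.9 and 258 RPM without IL-3 and at 167, 109 and 309 RPM with it. Of 14 tested genes that the study names for reaggregation or as candidates, 6 were higher and 8 lower, with Egr2 at the smallest p. The study chose that list partly from reaggregates against flat cultures of these samples, so it is not independent of them, although that choice did not compare libraries by IL-3.

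Genes, in the lists or not, were also ranked by their log2 difference. Among the 383 genes with the same sign in 3 pairs, an unadjusted p of at most 0.05 and at least 5 RPM in the higher group, 249 were higher with IL-3 and 134 lower. Greb1, known as an oestrogen-responsive gene, had the largest of these increases, with a log2 difference of 0.69 ± 0.19 (SE, limma adjusted p = 0.46). It was at 2.05, 12.4 and 1.52 RPM without IL-3 and at 5.45, 15.5 and 2.44 RPM with it. Csf2rb, described above, had a larger increase of 0.999 but lay outside this ranking, because its mean with IL-3 was 4.49 RPM. Sema3e, a secreted semaphorin that repels endothelial cells, was at 8.21, 5.01 and 4.01 RPM without IL-3 and at 10.3, 7.68 and 8.92 RPM with it (0.65 ± 0.16, SE, limma adjusted p = 0.29). Il34, a ligand of the receptor for macrophage colony-stimulating factor, was at 5.52, 7.52 and 5.21 RPM without IL-3 and at 10.8, 8.19 and 7.22 RPM with it. The other 7 of the 10 largest increases, Yod1, Casc5, AL662903.1, AC134441.2, Rpf2, Hpse and Slc37a4, had log2 differences between 0.48 and 0.65. Leaving out 1 library moved several of these by over 1.5-fold. Without reaggregate 1 or 2 the difference of Greb1 was 0.43, so that it was no longer the largest, and that of Il34 was 0.28. Without reaggregate 5 or 6 the difference of AL662903.1 was 0.19, against 0.51 with all pairs. Without reaggregate 1 or 2, Sema3e passed with an adjusted p of 0.0149 or 0.0176 and the kinetochore gene Casc5 with 0.0378 or 0.0404. Neither passed without any 1 of reaggregates 3 to 6. Without reaggregate 5 or 6 the log2 difference of Sema3e was 0.44 and that of Casc5 was 0.33, against 0.65 and 0.60 with all pairs.

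Of the 10 largest decreases with the same sign in all pairs, the mitochondrial ribosomal RNAs and Socs3 passed the test. CT010467.3, Gnb1l and mmu-mir-2133-2, described above, had larger decreases but mixed signs and lay outside this ranking. Npnt, which encodes the matrix protein nephronectin, was at 4.10, 9.47 and 3.27 RPM without IL-3 and at 3.27, 6.91 and 1.59 RPM with it, a log2 difference of -0.52 ± 0.19 (SE, limma adjusted p above 0.99). Pcdhb5, a clustered protocadherin, was at 9.72, 31.5 and 6.06 RPM without IL-3 and at 7.22, 30.7 and 3.17 RPM with it. Egr2 is described above, and Fgd4, Tmem184a, Fam195a and Ccdc28b had differences between -0.44 and -0.41. Without reaggregate 3 or 4 the difference of Tmem184a was -0.16, without 1 or 2 that of Fgd4 was -0.23, and without 5 or 6 that of Pcdhb5 was -0.22, against -0.43, -0.44 and -0.43 with all pairs.

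The difference with IL-3 varied from pair to pair. Across genes, which are not independent replicates, the log2 differences of pairs 1-2 and 3-4 correlated with r = -0.05, those of 1-2 and 5-6 with r = -0.05 and those of 3-4 and 5-6 with r = 0.06. Among 8119 genes with a mean of at least 20 RPM the values were -0.15, -0.16 and 0.24. The same sign was found in 3 of 3 pairs for 2101 higher and 1429 lower genes. The root mean square difference was 0.28, 0.29 and 0.28 within the pairs and between 0.54 and 0.78 for other combinations of reaggregates. Of the sum of squares over all genes, 85.9% lay between pairs, 4.56% with IL-3 and 9.52% in the remainder. Per degree of freedom the share with IL-3 was no larger than the remainder, so that 4.56% does not measure an effect of IL-3. The first principal component held 62.1% of the variance and the second 24.0%, and both separated the pairs and not IL-3.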

How the data were processed

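A TruSeq kit was used for the RNA-seq libraries, which were sequenced as 50-base single-end reads. The authors aligned reads to NCBIM37/mm9 with TopHat 1.2.0 and Bowtie and summed them per Ensembl gene in GeneProf. Reads that map to several places were divided among genes. The deposited unit is RPM. The authors' own fold changes and adjusted p-values for reaggregates against flat cultures stand beside them and were not used. In the reaggregates only 62.7 to 64.9% of values up to 10 RPM were whole multiples of 1 read within 1%, so no count test was run.

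RPM values were compared as log2(RPM + 0.5) with limma 3.58.1 in R 4.3.3, by a linear model with IL-3 and the pair as terms. Variances were moderated by empirical Bayes towards a trend on mean level, with 29.9 prior degrees of freedom. The SEs of log2 differences and the intervals are therefore moderated, and can be narrower than the spread of a gene's own pairs. P-values were two-sided and adjusted by the Benjamini-Hochberg procedure over all 16292 genes. With 3 pairs, an exact sign-flip test of 1 gene cannot go below p = 0.25. Neither the labels nor the methods state that consecutive libraries belong together. The deviations of the partners from their group means correlated with r = 0.62, 0.82 and 0.84 across genes. Genes were named as members of lists of pathways and markers, as the 25 most abundant receptor and STAT5 genes and 8 niche genes, as the 10 largest increases and decreases of the same sign in all pairs, as any gene past both thresholds, and as the gene with the smallest p in each other list. Bmper and Runx1 of the niche list were named beside its 8 most abundant genes. Members and lists were chosen with earlier results of these data known. Coordinates came from an annotation of NCBIM37 that held 25693 of 26888 gene IDs. The test was tried on simulated data. Figures were drawn with matplotlib 3.10.9.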

Additional observations from a re-analysis of the deposited data

How the results depend on the processing

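Counts depended strongly on the settings. The number of genes past 2-fold and an adjusted p of 0.05, 3 in the report, was 1 with a pseudocount of 1 and 0 with a pseudocount of 0.1, without the filter, with genes above 1 RPM in at least 3 reaggregates, with no replicate block, with a random replicate block, with quantile normalization, with median-ratio scaling, without the mean-variance trend, with all 10 libraries in the fit, and with robust moderation (chosen after seeing the data). Leaving out 1 library at a time gave between 1 and 14, and without any 1 of reaggregates 3 to 6 the gene was none of the 3. At any fold, 8 genes became 3 with a pseudocount of 0.1, 5 with the stricter filter, 3 with quantile normalization, 5 with median-ratio scaling, 1 with robust moderation, and 0 without the filter, with no replicate block, with a random replicate block, without the trend and with all 10 libraries. Leaving out 1 library gave between 2 and 88. The 692 genes that passed 0.05 before adjustment became 20 with no replicate block and 36 with all 10 libraries, and lay between 483 and 1332 without 1 library. The number of genes with an interval within 2-fold, 15943, stayed within 1.5-fold under each setting. Among named genes no result past the threshold reversed. Their values under other settings were judged by an adjusted p of 0.05 at any fold. Of these values, 87 lost that threshold, 13 newly passed it, 7 moved by more than the spread and 1166 did neither. The 1166 include CT010467.3, Gnb1l and mmu-mir-2133-2 without reaggregate 3 or 4, where they were no longer past 2-fold. The causes were not tested. Leaving out 1 library removes the information of its pair. Depth limits genes under 1 RPM.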
